A study of Mus musculus with 12 samples.

Results

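Chil3, Arg1 and Mrc1 are genes that mouse macrophages switch on when they take up a wound-healing, or alternatively activated, state, and Saa3 is an acute-phase gene. The 4 genes were followed here through 12 RNA libraries of primary mouse hepatic stellate cells, which store vitamin A and turn into fibre-making cells in injured liver. The members were picked by name for large falls after deletion of Hk2, and all 4 of 4 were found among 12081 listed genes. For 3 of them the values did lie far lower after the deletion. Mrc1 went the other way and was higher, so the 4 genes do not form a single group by their levels.

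All cells carried the genotype Hk2 fl/fl and were isolated from liver by density gradient. The lactate group (LAC) received an adenovirus carrying Cre recombinase fused to eGFP (Ad-Cre), which removes the floxed hexokinase gene Hk2 of glycolysis, and 10 mM lactate for 24 h. The deleted group (KO) received Ad-Cre alone. The activated group (ACT) received an eGFP virus (Ad-GFP), and LAC, KO and ACT cells were kept in culture for 6 days. The quiescent group (QS) was made of untreated cells taken fresh from the liver. Each group had 3 libraries. Cre came from a virus and not from a promoter of stellate cells, so any cell in the dish that took up the virus could lose the gene. Whether the 3 libraries per group stem from different mice or dishes is not given by the labels, so p-values measure the spread between these libraries only. The age of the mice was not given in the sources used here. Values are normalized CPM, read abundances scaled to the library total and by a further factor per library, as the authors deposited them. The listed genes held an estimated 8.67 to 11.05 M (mega) reads in LAC, 5.85 to 11.64 M in KO, 11.41 to 14.00 M in ACT and 4.35 to 10.14 M in QS.

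Alternative activation is the program that interleukin-4 and interleukin-13 start in macrophages through the receptor chain Il4ra and the transcription factor Stat6. Chil3 (Ym1) is a secreted chitinase-like protein without chitinase activity, and mouse monocytes and neutrophil precursors make it too. Arg1, the cytosolic arginase, splits arginine into ornithine and urea, and hepatocytes need it for the urea cycle. Saa3 is a serum amyloid A protein made outside hepatocytes in inflammation and is not a classical marker of alternative activation. Mrc1 (CD206) is an endocytic receptor for mannose-bearing glycoproteins, and liver sinusoidal endothelial cells carry it as well as macrophages. In bulk RNA, fewer cells of a type and less RNA per cell cannot be told apart.

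The labelled cell type was checked first. Of the activated stellate markers, such as Acta2 and Col1a1, 14 were measured, and they summed to 13643 to 14309 CPM in LAC, 8259 to 8891 CPM in KO, 18044 to 18139.7 CPM in ACT and 750.04 to 774 CPM in QS, where Actg2 was listed at 0 in every library. Quiescent stellate markers, of which 19 were measured, summed to 7078 to 7279 CPM in QS. They summed to 3144 to 3226 CPM in LAC, 3115 to 3381 CPM in KO and 1849 to 1876 CPM in ACT. The cultures also held macrophage RNA. The 25 general macrophage markers summed to 5819.9 to 5878 CPM in LAC, 543 to 557 CPM in KO, 21885 to 22263 CPM in ACT and 6281 to 6410.5 CPM in QS. The targeted gene Hk2 was 18.7 to 19.7 CPM in LAC, 10.7 to 13.7 CPM in KO, 180.5 to 182 CPM in ACT and 66.7 to 73.5 CPM in QS.

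Chil3 was far higher in ACT than in the other groups. It measured 3.91, 4.08 and 4.28 CPM in LAC, was listed at 0 in all 3 KO libraries, measured 266, 270.6 and 271 CPM in ACT, and 0.310, 0.240 and 0.209 CPM in QS. No groups overlapped, and the order was ACT, LAC, QS and KO. The QS values correspond to 3, 1 and 1 estimated reads and the LAC values to 38.0 to 44.0, so the order of QS and KO rests on a handful of reads. Because KO is listed at 0, no fold change against it is given. The gene lies on chromosome 3 (mm10, 106147554 to 106167564, minus strand). Its near-copy Chil4 lies beside it, from 106201490 to 106219507, and 41.5% of the 31-base words in Chil3 transcripts also occur in transcripts of other genes, most of them in Chil4 (28.9%). Chil4 was not analysed here, and how reads were split between the copies was not tested, so the Chil3 values are uncertain in that respect.

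Arg1 also peaked in ACT and was lowest in KO. It measured 103, 103 and 100.2 CPM in LAC, 6.80, 6.92 and 8.68 CPM in KO, 1408, 1385 and 1376 CPM in ACT, and 117, 124 and 114 CPM in QS. The mean was 102 ± 1.497 CPM in LAC and 7.47 ± 1.053 CPM in KO, against 1389.6 ± 16.8 CPM in ACT and 118 ± 5.11 CPM in QS (SD, n = 3 each). No groups overlapped, though LAC and QS lay close together. Arg1 lies on chromosome 10 (mm10, 24915221 to 24927484, minus strand), and none of the 31-base words in its transcripts was found in another gene.

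Saa3 measured 4.79, 4.75 and 4.26 CPM in LAC, 0, 0.165 and 0.285 CPM in KO, 167, 185 and 182 CPM in ACT, and 29.4, 30.7 and 26.9 CPM in QS. The KO values stand for 0, 1 and 2 estimated reads. The order was ACT, QS, LAC and KO, as for Arg1, again without overlap. Saa3 lies on chromosome 7 (mm10, 46711998 to 46715700, minus strand) and shares 7.56% of its 31-base words with other transcripts.

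Mrc1 had another order altogether, with QS highest and ACT lowest. It measured 184, 186 and 192 CPM in LAC, 376, 385 and 399.6 CPM in KO, 170.1, 169 and 171 CPM in ACT, and 1490.3, 1559.6 and 1565 CPM in QS. KO was 2.27 times the ACT mean, and the LAC libraries lay just above the ACT libraries, at 1.10 times their mean. Mrc1 lies on chromosome 2 (mm10, 14229392 to 14332057, plus strand), and none of its 31-base words was found in another gene. Libraries of different groups did not overlap in any pair of groups for any of the 4 genes. The same held for 52.2% of all genes in LAC against KO, 69.2% in KO against ACT, 76.3% in ACT against QS, 62.8% in LAC against ACT and 72.5% in KO against QS.

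**Figure D1:**
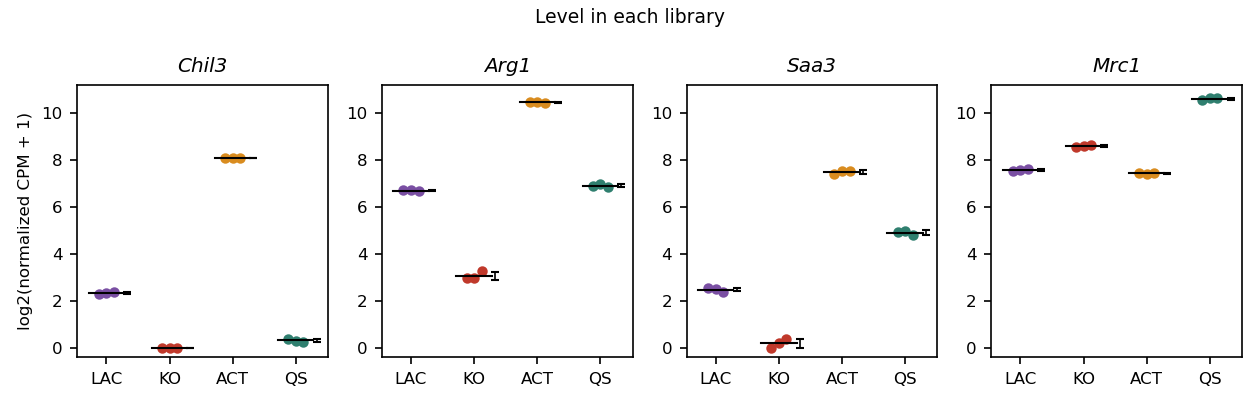
Level of each gene per library on the log2(CPM + 1) scale, for LAC, KO, ACT and QS; points are libraries, the horizontal line is the mean and the bar beside it the SD of 3 libraries. Chil3, Arg1 and Saa3 peak in ACT and are lowest in KO, while Mrc1 peaks in QS and is lowest in ACT.

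Chil3, Arg1 and Saa3 thus shared a peak in ACT and a minimum in KO that Mrc1 did not show. Over the 12 libraries, Pearson's r of log2(CPM + 1) was 0.87 between Chil3 and Arg1, 0.78 between Chil3 and Saa3 and 0.96 between Arg1 and Saa3. Mrc1 gave r = -0.65 with Chil3, -0.30 with Arg1 and -0.06 with Saa3. The 12 libraries form 4 groups of near-identical profiles, so these coefficients describe group levels. Part of the agreement is fixed by choosing genes for a fall in KO.

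Since the members differ in course, the bases just before the transcription starts of 3 of them are shown, from RefSeq (GRCm38.p6, the same build as mm10). Each line holds the 250 bases upstream of the RefSeq start, on the gene's strand, with matches to a searched motif in capitals. The windows are chr3:106167565-106167814 for Chil3, chr7:46715677-46715926 for Saa3 and chr2:14229164-14229413 for Mrc1.
Chil3: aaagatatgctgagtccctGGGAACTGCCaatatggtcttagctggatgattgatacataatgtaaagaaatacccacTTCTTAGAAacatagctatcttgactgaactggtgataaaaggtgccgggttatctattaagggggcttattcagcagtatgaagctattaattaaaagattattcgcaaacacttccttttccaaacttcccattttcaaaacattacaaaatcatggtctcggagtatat
Saa3: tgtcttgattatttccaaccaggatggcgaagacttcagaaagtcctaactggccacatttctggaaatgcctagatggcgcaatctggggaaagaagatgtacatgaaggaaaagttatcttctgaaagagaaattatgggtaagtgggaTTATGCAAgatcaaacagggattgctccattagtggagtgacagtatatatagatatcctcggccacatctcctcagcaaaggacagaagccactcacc
Mrc1: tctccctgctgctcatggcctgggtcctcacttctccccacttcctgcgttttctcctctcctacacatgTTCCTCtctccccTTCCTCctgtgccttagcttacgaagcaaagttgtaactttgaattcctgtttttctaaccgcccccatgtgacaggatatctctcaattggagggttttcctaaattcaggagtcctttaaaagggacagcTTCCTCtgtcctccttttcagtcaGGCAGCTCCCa
The letters searched on both strands were TTC and GAA set 4 bases apart for STAT6 and 3 bases apart for other STAT factors, TTGCNNAA for C/EBP, GAGGAA for PU.1, GGG and CC set 5 bases apart for NF-kB, and TGANTCA for AP-1. The core promoter box was searched as TATAAA. Chil3 held a STAT match 172 bases and an NF-kB match 231 bases before the start. Saa3 held a C/EBP match 99 bases before the start, on the opposite strand. Mrc1 held 3 PU.1 matches, 180, 167 and 35 bases before the start, and an NF-kB match at 11 bases, all on the opposite strand. No pair of matches overlapped, and no window held the letters for STAT6, AP-1 or the core promoter box. Among 32851 promoter windows of this length, 7.02% held the STAT letters, 9.56% the C/EBP, 23.3% the PU.1, 45.8% the NF-kB, 5.85% the STAT6, 6.75% the AP-1 and 12.4% those of the core promoter box. A match is a run of letters and says nothing of binding.

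LAC against QS is the comparison that shares no library with the choice of the genes, and it asks where lactate-treated deleted cells stand relative to fresh cells. Its SE and adjusted p use a spread estimated over all 12 libraries, KO and ACT included, so they are not independent of that choice. The 4 genes split. Chil3 was higher in LAC than in QS, with a log2 difference of 2.02 (SE 0.13, limma adjusted p = 3.83e-09, n = 3 each) on the log2(CPM + 1) scale, which understates changes at low levels. Saa3 was lower in LAC, at 4.603 ± 0.294 CPM against 29.0 ± 1.93 CPM in QS (-2.42, SE 0.12, limma adjusted p = 2.01e-10). Mrc1 was lower in LAC, at 188 ± 4.31 CPM against 1538 ± 41.5 CPM in QS (-3.03, SE 0.03, limma adjusted p = 5.60e-17). Arg1 differed little, with 0.861 times the QS mean in LAC (-0.21, SE 0.07, limma adjusted p = 0.0125), and that call was lost when libraries were scaled to an equal total (-0.12, adjusted p = 0.155). So 1 of the 4 genes was called higher and 3 lower, where 73.6% of all genes were called in this comparison (37.4% higher, 36.2% lower). All 4 had LAC and QS libraries that did not overlap, as did 74.9% of all genes. For each gene alone, an exact two-sided permutation test gave p = 0.1, the smallest that 3 against 3 libraries allow.

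The other comparisons hold ACT or KO libraries, which chose the genes, and are given as values without a test. KO against ACT, the contrast behind the choice, gave log2 differences of -7.37 (SE 0.07) for Arg1, -7.29 (SE 0.12) for Saa3 and 1.18 (SE 0.03) for Mrc1, where 62.4% of all genes were called (36% higher, 26.3% lower). LAC against KO compares deleted cells with and without lactate. Hk2 itself was higher in LAC (log2 difference 0.64, SE 0.08), and the part of lactate in the differences was not tested. Arg1 was 13.7 times its KO mean in LAC (log2 difference 3.61, SE 0.07), Saa3 reached 4.603 CPM in LAC against 0.150 CPM in KO (2.29, SE 0.12), and Chil3 reached 4.09 ± 0.185 CPM in LAC. Mrc1 was 0.485 times its KO mean in LAC (-1.04, SE 0.03). In this comparison 41% of all genes were called (20% higher, 21% lower). LAC against ACT gave -5.73 for Chil3, -3.76 for Arg1, -5.00 for Saa3 and 0.14 for Mrc1, where 49.5% of all genes were called (27.8% higher, 21.7% lower). Activation in culture, ACT against QS, gave 7.75 for Chil3, 3.54 for Arg1, 2.58 for Saa3 and -3.17 for Mrc1, where 73.5% of all genes were called (38% higher, 35.5% lower). KO against QS gave -3.82 for Arg1, -4.71 for Saa3 and -1.99 for Mrc1, where 73% of all genes were called (37.4% higher, 35.7% lower). These comparisons share ACT or KO libraries with one another. With Saa3 at 0 to 2 estimated reads in KO, its differences against KO depend on the processing. Over 18 alternatives they ran from -9.68 to -5.15 in KO against ACT, from -7.07 to -2.72 in KO against QS and from 0.90 to 4.44 in LAC against KO. Chil3 in ACT against QS, with 1 to 3 estimated reads in QS, ran from 5.71 to 9.58. Measured as a share of the ACT level, LAC held 1.52% of Chil3, 7.34% of Arg1 and 2.59% of Saa3, and KO held 0.537% of Arg1 and 0.0842% of Saa3.

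Those shares were set beside the general macrophage markers, which include Adgre1 (F4/80), Itgam and Lyz2. Of 25 markers, 24 fell in KO against ACT and 1, Mertk, rose (100% called against 62.4% of all genes, median log2 difference -5.62, against 0.07 over all genes). In LAC against KO, 23 rose and 1, again Mertk, fell (96% called against 41% of all genes, median 3.61, against -0.02 over all genes). In LAC the markers held 13.3% (Fcgr1) to 169% (Mertk) of their ACT level, with a median of 26.3%. Chil3, Arg1 and Saa3 each kept a smaller share than any of the 25, whereas Mrc1, at 110.1%, stood above all of them but Mertk, a receptor for dying cells. In KO the marker median was 1.40% of ACT, and the share kept by Arg1 exceeded that of 1 marker, Itgam (0.432%). Some macrophage genes outside the 25 fell on a scale like that of Chil3, Arg1 and Saa3 in LAC against ACT. Marco (-5.88) and Cd5l (-4.76) did so among 12 Kupffer cell markers, of which 10 fell and 2 rose.

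**Figure D2:**
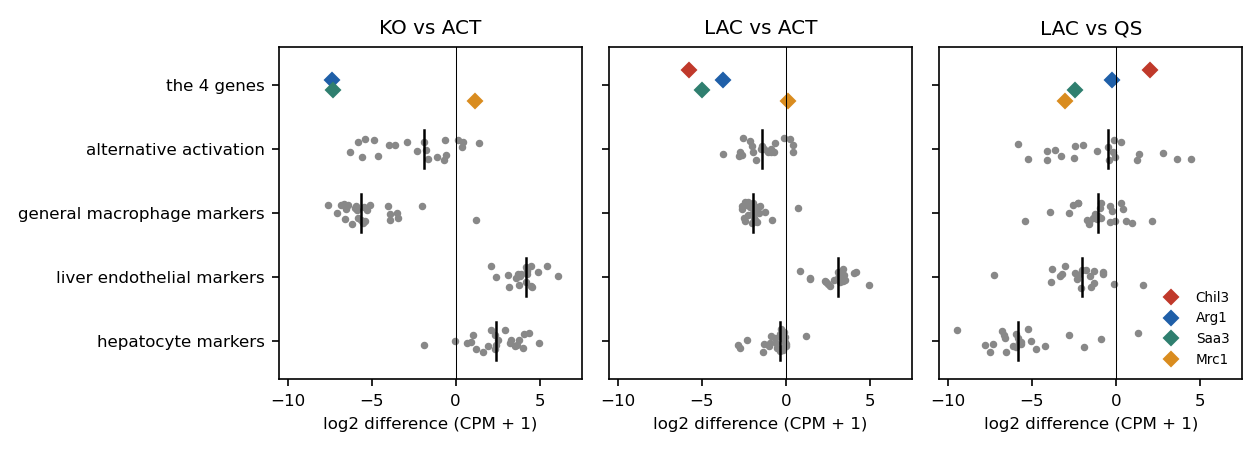
Log2 differences on the CPM + 1 scale in KO vs ACT, LAC vs ACT and LAC vs QS for the 4 genes (diamonds) and for single genes of 4 lists (grey points, with the list median as a bar); Chil3 is left out where KO is listed at 0. Mrc1 lies to the right of all macrophage markers but Mertk in the comparisons with ACT, and Chil3, Arg1 and Saa3 lie to their left in LAC vs ACT.

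A level relative to macrophages was computed in each library as log2(CPM + 1) of the gene minus the mean of the 25 markers. For Arg1 it was 0.38 ± 0.04 in LAC, 0.07 ± 0.26 in KO, 2.27 ± 0.09 in ACT and -0.53 ± 0.05 in QS. The KO libraries lay on both sides of 0, from -0.16 to 0.35. For Chil3 it was -3.96 ± 0.04 in LAC, -0.09 ± 0.06 in ACT and -7.11 ± 0.06 in QS. For Saa3 it was -3.82 ± 0.10 in LAC, -0.69 ± 0.00 in ACT and -2.52 ± 0.09 in QS. KO values of these 2 genes are set by the pseudocount and are not read. The QS value of Chil3 rests on 1 to 3 estimated reads per library and depends on the pseudocount too. For Mrc1 it was 1.25 ± 0.01 in LAC, 5.597 ± 0.15 in KO, -0.75 ± 0.08 in ACT and 3.16 ± 0.04 in QS. The macrophage mean itself moved by -5.17 in KO against ACT, and Arg1 moved by a further -2.20. In LAC against KO the macrophage mean moved by 3.30 and Arg1 by a further 0.31, beside an SD of 0.26 in KO. The median change of the 25 markers, 3.61, was level with that of Arg1, 3.61. In LAC against ACT Chil3, Arg1 and Saa3 fell short of the macrophage mean by 3.87, 1.89 and 3.13, where the mean moved by -1.86.

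**Figure D3:**
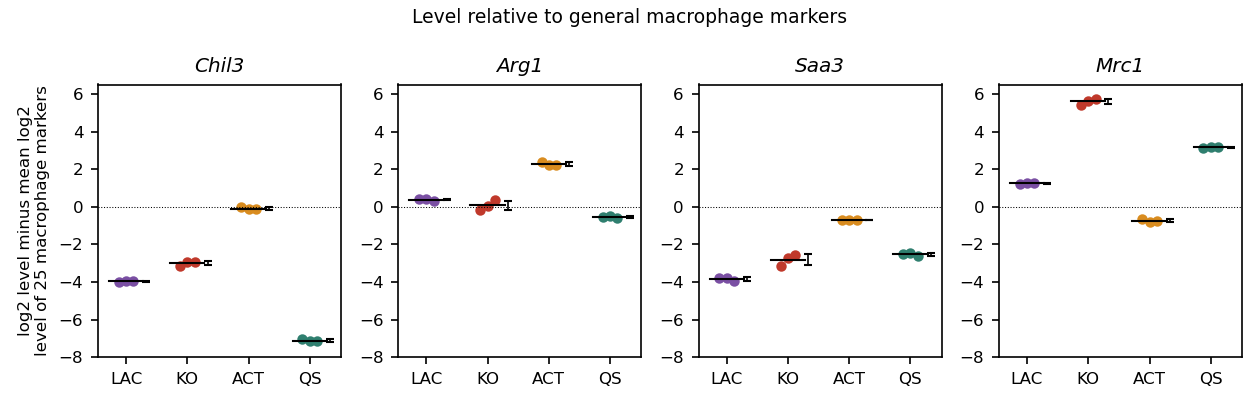
Log2(CPM + 1) of each gene minus the mean log2(CPM + 1) of 25 general macrophage markers, per library, for LAC, KO, ACT and QS. Line and bar are mean and SD of 3 libraries, and the dotted line is 0. KO points of Chil3 and Saa3 are set by the pseudocount, and QS points of Chil3 depend on it. Chil3, Arg1 and Saa3 are highest relative to macrophage markers in ACT, Mrc1 in KO.

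Markers of other cells moved with Mrc1. Of 20 liver endothelial markers, all 20 rose in KO against ACT (100% called against 62.4% of all genes, median 4.20), led by Clec4g (6.11), Gpr182 (5.45), Lyve1 (4.92) and Egfl7 (4.57), and 19 fell in LAC against KO (95% called against 41% of all genes, median -1.05). Their summed level was 5866 to 6132 CPM in LAC, 10859.7 to 12124 CPM in KO, 952 to 982 CPM in ACT and 22451 to 22989 CPM in QS, the order of Mrc1. No endothelial marker was listed at 0 in any group. The endothelial sum in LAC was well above that in ACT, though, while Mrc1 was nearly level between them. Of 19 quiescent stellate markers, 16 rose and 2 fell in KO against ACT (94.7% called against 62.4% of all genes, median 1.79). In LAC against KO, 7 of these stellate markers rose and 8 fell (78.9% called against 41% of all genes). Their highest mean was in QS for 14 and their lowest in ACT for 13. The part of endothelial or stellate cells in the Mrc1 values was not tested. Of 12 Kupffer cell markers, 9 fell and 2 rose in KO against ACT (91.7% called against 62.4% of all genes), and 4 rose and 4 fell in LAC against KO (66.7% called against 41% of all genes). Their sum was 158 to 173 CPM in LAC, 215 to 232 CPM in KO, 717 to 732 CPM in ACT and 4061 to 4109.6 CPM in QS, with Timd4 listed at 0 in LAC. The scavenger receptor gene Marco was 2.33 CPM in LAC, 1.39 CPM in KO and 194 CPM in ACT. Cd5l, a secreted macrophage protein gene, was 7.30 CPM in LAC, 8.36 CPM in KO and 223 CPM in ACT. Marco (-2.26) and Cd5l (-2.26) were lower in ACT than in QS, and 11 of the 12 Kupffer cell markers had their highest mean in QS. Other markers of this list took another course. Fabp7 (2.95), Siglec1 (2.76) and Folr2 (1.43) rose in LAC against KO, while Clec4f (-1.37) fell. Clec1b (2.99) was among those that rose in KO against ACT.

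Hepatocyte markers bear on Arg1, a urea cycle gene of hepatocytes. Of 23 measured, 21 rose and 1 fell in KO against ACT (95.7% called against 62.4% of all genes), and 20 fell and 2 rose in LAC against KO (95.7% called against 41% of all genes). Their sum was 386 to 404 CPM in LAC, 716 to 752 CPM in KO, 457 to 473 CPM in ACT and 3197 to 3296 CPM in QS. In LAC 7 of them were listed at 0 in every library, including the urea cycle genes Cps1 and Otc, while Arg1 was 102 CPM. In ACT, where Arg1 peaked, Otc and Hpd were listed at 0 and Cps1 was 0.152 CPM. In KO and QS hepatocyte genes were present: Cps1 was 5.59 CPM in KO and 36.5 CPM in QS, beside 7.47 and 118 CPM of Arg1. The part of hepatocytes in the Arg1 values of any group was not tested. Chil3 is also a gene of neutrophil precursors. Only 5 of 16 neutrophil markers were measured, and they summed to 13.9 to 15.1 CPM in LAC, 1.28 to 2.10 CPM in KO, 69.7 to 77.7 CPM in ACT and 74.4 to 85.4 CPM in QS. These sums hide unlike courses: in ACT against QS, where 73.5% of all genes were called, 2 of the 5, Mmp8 (2.44) and Mmp9 (1.53), rose and 2, Csf3r (-1.71) and Lcn2 (-1.22), fell. The part of neutrophils in the Chil3 values was not tested. Among 11 measured monocyte markers, 8 fell and 2 rose in KO against ACT (90.9% called against 62.4% of all genes), and Plac8 (2.14), Cx3cr1 (2.09) and F13a1 (1.40) rose in LAC against KO. Their sum was 386 to 391.7 CPM in LAC, 146 to 153 CPM in KO, 359.5 to 365 CPM in ACT and 329 to 330.4 CPM in QS.

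**Figure D4:**
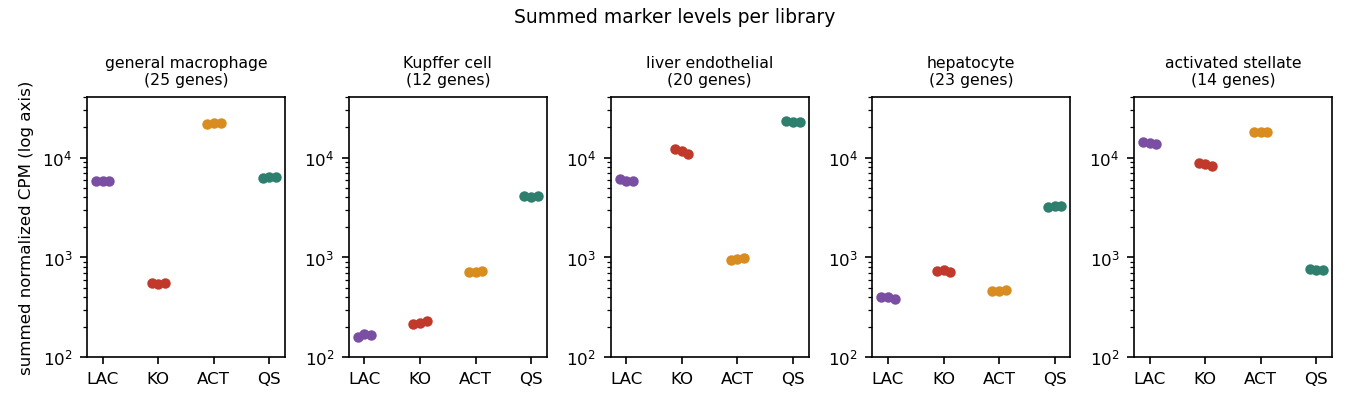
Summed normalized CPM of 5 marker lists per library on a log axis, for LAC, KO, ACT and QS; each point is a library. The macrophage sum is highest in ACT and lowest in KO, the endothelial sum is highest in QS and lowest in ACT, as was Mrc1.

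Further genes of alternative activation did not share a single course. Of 21 measured list genes, 10 had their highest mean in ACT and 11 in QS, and 9 had their lowest mean in KO, 7 in LAC, 3 in ACT and 2 in QS. Of the 21, 17 fell and 3 rose in KO against ACT (95.2% called against 62.4% of all genes, median -1.86). Itgax (-6.31), Clec7a (-5.80), which encodes the beta-glucan receptor dectin-1, Trem2 (-5.58), a lipid-sensing receptor, and the scavenger receptor gene Msr1 (-5.39) fell most. In LAC against KO, 11 rose and 3 fell (66.7% called against 41% of all genes, median 0.60). The largest rises were again in Itgax (4.82), Trem2 (3.80), Clec7a (3.08) and Msr1 (2.77). In LAC against QS, 5 rose and 12 fell (81% called against 73.6% of all genes, median -0.50, against 0.01 over all genes), with Cd163 (-5.86), Il1rn (-5.22), which encodes the interleukin-1 receptor antagonist, and Ccl7 (-4.07) lower and Itgax (4.45) higher. Alox15, a lipoxygenase gene that interleukin-4 induces in macrophages, was 0.0296 CPM in LAC, 0.123 CPM in KO, 12.9 CPM in ACT and 0.0800 CPM in QS. It was singled out after its values were seen, and its difference in LAC against KO (-0.12, SE 0.21) did not pass the test (limma adjusted p = 0.682).

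**Figure D5:**
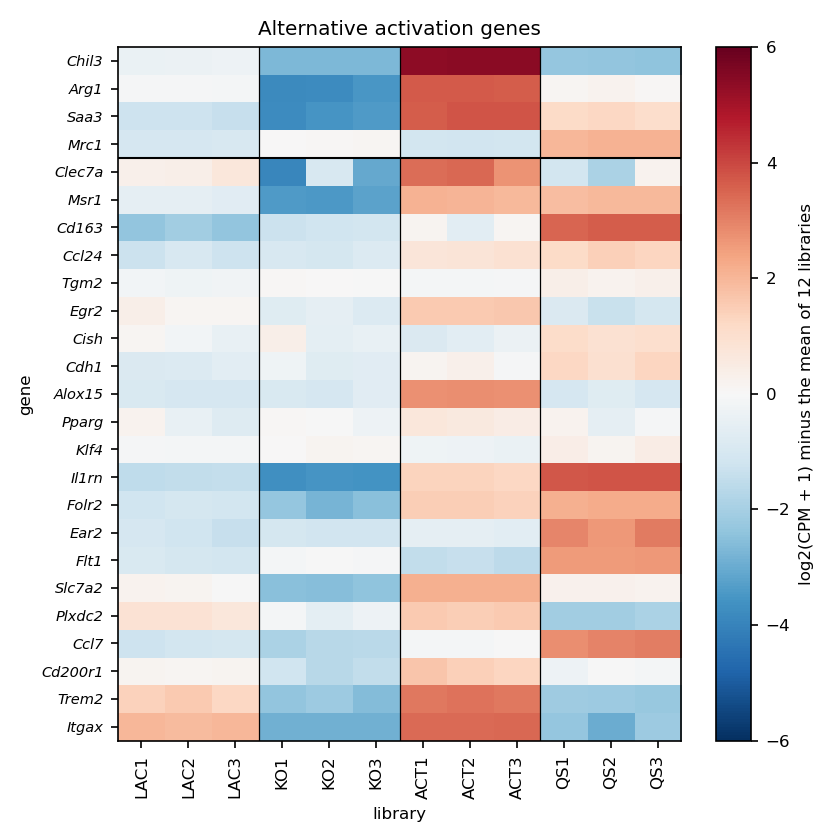
Log2(CPM + 1) minus the mean of the 12 libraries for the 4 genes (above the line) and 21 other alternative activation genes; columns are libraries of LAC, KO, ACT and QS, red is above and blue below the gene's mean. Genes such as Msr1, Trem2 and Itgax are lowest in KO, while Cd163, Il1rn and Flt1 are highest in QS.

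Upstream in the interleukin-4 pathway, Il4ra was 48.5 CPM in LAC, 66.8 CPM in KO, 50.7 CPM in ACT and 66.7 CPM in QS. Stat6 was 133 CPM in LAC, 137 CPM in KO, 149 CPM in ACT and 183 CPM in QS, with log2 differences of -0.13 in KO against ACT (SE 0.05, limma adjusted p = 0.0495) and -0.04 in LAC against KO (SE 0.05, limma adjusted p = 0.62). Of 14 measured pathway genes, 6 rose and 5 fell in KO against ACT (78.6% called against 62.4% of all genes, median 0.31), among them Ptpn6 (-5.02), a phosphatase gene of blood cells, Inpp5d (-1.93), Il2rg (-1.55) and the kinase gene Jak1 (1.45). Myeloid transcription factors fell in 13 and rose in 7 of 22 cases in KO against ACT (90.9% called against 62.4% of all genes, median -0.54). Spi1, which encodes PU.1, was 19.05 CPM in LAC, 0.979 CPM in KO, 80.3 CPM in ACT and 40.0 CPM in QS. In LAC against KO, 10 of them rose and 6 fell (72.7% called against 41% of all genes), with Spi1 (3.41), Cebpa (1.59) and Mitf (1.51) among those that rose. Cebpb, a factor that acts on Arg1 and Saa3 in macrophages, was 26.7 CPM in LAC, 20.7 CPM in KO, 40.0 CPM in ACT and 36.4 CPM in QS.

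Genes of the opposed, classical activation state were mixed. Of 21 measured, 11 fell and 6 rose in KO against ACT (81% called against 62.4% of all genes, median -0.39), with Marco (-6.38), Irf5 (-4.01), Cd86 (-2.81) and Tnf (-2.41) the largest. In LAC against KO 10 rose and 6 fell (76.2% called against 41% of all genes, median 0.15), led by Il6 (2.42), Irf5 (2.11), Cxcl9 (-1.74) and Cxcl10 (-1.46), and only 6 rose when no other groups were in the fit. Nos2, which competes with Arg1 for arginine, was not analysed here.

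The pathways around each gene did not follow it as a whole. Of 27 measured arginine and polyamine genes, 12 rose and 9 fell in KO against ACT (77.8% called against 62.4% of all genes, median 0.08), and 5 rose and 12 fell in LAC against KO (63% called against 41% of all genes, median -0.17). Odc1, which turns the ornithine made by arginase into putrescine, was 325 CPM in LAC, 522 CPM in KO, 169 CPM in ACT and 806 CPM in QS, with log2 differences of 1.62 in KO against ACT (SE 0.05, limma adjusted p = 3.67e-12) and -0.68 in LAC against KO (SE 0.05, limma adjusted p = 1.65e-07), both opposite in sign to those of Arg1. Slc7a2, an arginine carrier gene counted in the alternative activation list, was singled out after its values were seen, with 46.5 CPM in LAC, 6.74 CPM in KO, 191 CPM in ACT and 50.7 CPM in QS. The mitochondrial arginase Arg2 was 0.452 CPM in LAC, 0.458 CPM in KO, 0.406 CPM in ACT and 24.99 CPM in QS. Nos3, the endothelial nitric oxide synthase, was 11.6 CPM in LAC, 23.6 CPM in KO, 1.22 CPM in ACT and 50.4 CPM in QS.

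Other acute-phase genes differed from Saa3. Of 24 measured, 9 rose and 11 fell in KO against ACT (83.3% called against 62.4% of all genes, median 0.00), with the complement gene C3 (-3.39), the pentraxin gene Ptx3 (-2.94), Lcn2 (-2.46) and Hp (-1.99) the largest changes. In LAC against KO 6 rose and 11 fell (70.8% called against 41% of all genes, median -0.15), with Ptx3 (1.55) among those that rose. The serum amyloid genes of hepatocytes did not share its course. Saa1 was listed at 0 in all LAC libraries and was 0.551 CPM in KO, 0.316 CPM in ACT and 13.1 CPM in QS. Saa4 was 0.186 CPM in LAC, 1.81 CPM in KO, 0.292 CPM in ACT and 8.83 CPM in QS.

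Among the relatives of Mrc1 and other endocytic lectins, 14 of 20 fell and 6 rose in KO against ACT (100% called against 62.4% of all genes, median -2.27), and 15 rose and 4 fell in LAC against KO (95% called against 41% of all genes, median 0.99). The myeloid lectin genes Clec4d (-6.02), Clec12a (-5.56) and Clec4e (-5.28) and the macrophage gene Cd68 (-5.42) fell most. The genes that rose with Mrc1 in KO, looked at after their values were seen, were Pla2r1, Cd36, Stab1, Stab2, Scarb1 and Scarb2. Among them Stab2, a hyaluronan receptor of sinusoidal endothelium, was 387 CPM in LAC, 917 CPM in KO, 39.9 CPM in ACT and 1940.2 CPM in QS. Mrc2, a collagen receptor of the same family, was 45.3 CPM in LAC, 34.1 CPM in KO, 56.3 CPM in ACT and 9.47 CPM in QS, the reverse of the order of Mrc1. Of chitinases and chitinase-like proteins, 2 of 8 were measured. Chid1 was 40.0 CPM in LAC, 37.2 CPM in KO, 36.2 CPM in ACT and 10.3 CPM in QS, and Ctbs was 22.7, 20.7, 32.0 and 21.7 CPM in LAC, KO, ACT and QS.

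The genes with the most similar course were named by Pearson's r of log2(CPM + 1) over the 12 libraries. For Arg1 they were Lcp1 (r = 0.998), Man2b1 (0.997), Gda (0.997), Rnf149 (0.996) and Nceh1 (0.995). Lcp1, the actin-bundling protein of blood cells, was 424 CPM in LAC, 126 CPM in KO, 1389.9 CPM in ACT and 496 CPM in QS. For Saa3 they were Slpi (0.997), Atl3 (0.995), Actr2 (0.994), Gpx1 (0.993) and Cln8 (0.992). Slpi, a secreted protease inhibitor of epithelia and macrophages, was 4.23 CPM in LAC, 0.325 CPM in KO, 95.1 CPM in ACT and 17.2 CPM in QS. For Chil3 they were Srpx (0.996), Bnc1 (0.996), Rgs18 (0.995), Medag (0.994) and Crb2 (0.994). For Mrc1 they were Colec10 (0.999), Cyb5a (0.999), Plxnc1 (0.998), Cd300lg (0.998) and Ugt2b1 (0.998). Colec10, a collectin, was counted among the quiescent stellate markers. It was 0.377 CPM in LAC, 10.1 CPM in KO, 0.176 CPM in ACT and 503 CPM in QS. The endothelial gene Cd300lg was 2.13, 11.0, 1.11 and 329 CPM in LAC, KO, ACT and QS.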

How the data were processed

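The authors deposited a table of normalized CPM, recorded here as a signal because the deposited column totals of 959233 to 1047042 are unequal, so each library carries a further factor. The submitters' processing notes name kallisto 0.44.0, edgeR 3.8, cutadapt 1.18, FastQC 0.11.8 and mm10, with roles not given in the sources used here. All 12081 genes have at least 1 CPM in at least 3 libraries, and no count test was run because counts are not given. Limma 3.58.1 in R 4.3.3 was fitted to log2(CPM + 1) of all genes with 4 group means, on 8 residual degrees of freedom and an intensity trend. Benjamini-Hochberg adjustment ran over all genes of a comparison, with calls under 0.05, and the procedure was tested on simulated data. Estimated reads are the CPM divided by the smallest frequent low value of a library, taken as 1 read.

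The members, the 19 gene lists and the tests were chosen with earlier results of these data known. Named in the text are the 4 genes, the 5 genes most correlated with each, at most 4 called genes of a list, by size of change, and fixed paralogs and partners, apart from those marked as chosen after their values were seen. Sequences came from RefSeq promoters, in which 3 of the 4 genes matched, and coordinates from GENCODE M21. Shared 31-base words were counted in GENCODE M21 transcripts. Alternatives were other pseudocounts, a filter at 5 CPM, other scalings, the replicate number as a block, 2 groups per fit, other moderation, library weights and leaving out each library.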

Additional observations from a re-analysis of the deposited data

How the results depend on the processing

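In LAC against QS, Chil3 (0.79 to 3.58), Saa3 (-2.63 to -1.82) and Mrc1 (-3.17 to -2.93) kept direction and call under every alternative, 18 per gene. Arg1 kept its direction, but its call was lost with an equal total per library (-0.12, adjusted p = 0.155), an equal median (-0.14, adjusted p = 0.0836), quantile normalization (-0.12, adjusted p = 0.176) and an equal total without myeloid markers (-0.12, adjusted p = 0.137); the cause was not tested. Leaving out each LAC or QS library gave -0.24 to -0.18 for Arg1, 1.99 to 2.05 for Chil3, -2.47 to -2.38 for Saa3 and -3.05 to -3.02 for Mrc1. Elsewhere no difference of the 4 genes changed sign. The size for Saa3 in KO depends on the pseudocount, with LAC against KO between 0.90 and 4.44. No alternative was run for Chil3 against KO, where it is listed at 0. Every count of genes called over the whole table stayed within 1.5 times. Equal totals moved the median of all genes by 0.10 in KO against QS. Replicate numbers did not pair the libraries, with correlations of deviations from group means of -0.12 to 0.23, and with the replicate block all 4 genes kept their calls (Arg1 adjusted p = 0.0183). The CPM of 3 reads, 0.212 to 0.720, limits Chil3 in QS and KO and Saa3 in KO.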

Other observations

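The genes closest in course to Chil3 were not macrophage genes alone. Bnc1, a transcription factor gene of mesothelium, was 2.52 CPM in LAC, 0.579 CPM in KO, 28.2 CPM in ACT and 0.576 CPM in QS. Medag was 4.43 CPM in LAC, 1.41 CPM in KO, 44.1 CPM in ACT and 1.08 CPM in QS, and Srpx was 2.21 CPM in LAC, 0.151 CPM in KO, 50.2 CPM in ACT and 0.316 CPM in QS. The mesothelial genes Wt1 and Upk1b shared the order of ACT first and LAC next. Wt1 was 5.89 ± 0.691 CPM in LAC, 0.896 ± 0.261 CPM in KO, 79.8 ± 2.71 CPM in ACT and 0.934 ± 0.635 CPM in QS. The log2 difference of Wt1 was 1.87 (SE 0.23) in LAC against KO and 1.89 (SE 0.23) in LAC against QS. Both belong to the order by which Wt1 was picked, so they are given as values without a test. These genes were chosen after their values were seen. The whole mesothelial and biliary list had 12 measured members, of which 6 fell and 3 rose in KO against ACT (75% called against 62.4% of all genes), and 7 rose and 0 fell in LAC against KO (58.3% called against 41% of all genes).

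Of 11 measured monocyte markers, 2 had their highest mean in LAC. Plac8 was the first of them, at 186 CPM in LAC, 41.4 CPM in KO, 71.5 CPM in ACT and 91.3 CPM in QS. The other was Ace, at 12.4 CPM in LAC, 11.4 CPM in KO, 2.39 CPM in ACT and 2.05 CPM in QS. Its difference in LAC against KO (0.11, SE 0.31) did not pass the test (limma adjusted p = 0.812). Plac8 and Ace were singled out after their values were seen.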
